A study of Mus musculus with 4 samples.

Results

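The CTCF and cohesin genes are 9 mouse genes, *Ctcf*, *Smc3*, *Rad21*, *Stag1*, *Nipbl*, *Mau2*, *Wapl*, *Pds5a* and *Pds5b*, out of 21938 protein-coding genes in the annotation. They were chosen by name for the roles of their proteins in genome folding. For each gene, the differential peaks of open chromatin were counted that lay in the gene body or within 10 kb of one of its transcription start sites (TSSs). ATAC-seq, which uses the Tn5 transposase to tag DNA that nucleosomes leave open, had been run on whole embryonic hearts at E9.5 (embryonic day 9.5). *Smyd1-KO* hearts carried the conventional null allele in every cell and so lacked SMYD1, a methyltransferase of heart and skeletal muscle, and wild-type (WT) hearts carried it intact. No further treatment separated the groups, and each had 2 libraries (4 in all), each made from 4 pooled hearts and 40000 viable cells. The hearts had been frozen and dissociated whole, so every heart cell type contributed, and a change in the share of a cell type cannot be told apart from a change in its accessibility.

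The deposited lists held 25745 peaks that were at least 2-fold higher in *Smyd1-KO* hearts, called gained peaks here, and 106 peaks that were at least 2-fold higher in WT hearts. Every peak was 149 bp wide. Its score was read as the tags (aligned read ends) in it over the pooled libraries of the genotype in which it was higher, after a scaling by the authors that is not given in the sources used here. Scores at these genes include fractions of a tag, so they are not raw counts. The pooling leaves no spread between replicates, so none of the differences below was tested over hearts. The 95% intervals beside scores are exact Poisson intervals and cover counting error only. They take the scaled score as if it were a raw count of independent tags, and would be wider or narrower if it was scaled up or down. A gained peak has no WT score in these lists, so its fold change beyond the cutoff of 2 is not given, and open chromatin shared by both genotypes was not analysed here. The lists hold no expression values, so the label of heart tissue could not be checked against marker genes.

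Cohesin is a ring-shaped protein complex that holds sister chromatids together after replication and, in interphase, pulls chromatin fibers into loops. SMC3, the kleisin RAD21 and a STAG subunit such as STAG1 form the ring with SMC1A. NIPBL and MAU2 load the ring onto DNA, WAPL releases it, and PDS5A and PDS5B bind it and tune both its release and its halting. CTCF, a zinc finger protein that binds DNA, stops moving cohesin at loop anchors and at the boundaries of chromatin domains. These genes are expressed in most dividing cells. In people, loss of one copy of *NIPBL* is the most common known cause of Cornelia de Lange syndrome, in which heart defects are frequent.

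All 9 genes had a gained peak and none had a WT-enriched peak. They had 15 gained peaks in all, 2 each at *Ctcf*, *Smc3*, *Rad21*, *Stag1*, *Nipbl* and *Pds5b* and 1 each at *Mau2*, *Wapl* and *Pds5a*. By the same count, 62.6% of all protein-coding genes (13733 of 21938) had a gained peak and 0.155% (34 genes) had a WT-enriched one. All 9 genes had a gained peak within 1 kb of a TSS, against 48.1% of protein-coding genes (10561 of 21938). Among the 8384 protein-coding genes at least as long as *Mau2*, the shortest of the 9, that share was 62.6%. Among the 9293 protein-coding genes with a CpG-rich TSS window, a class that holds all 9 genes, it was 78.3%. A window of 1 kb around any of a gene's TSSs was called CpG-rich where its GC content was at least 55% and its observed over expected CpG ratio at least 0.65. The count of 9 therefore has to be read against a background of 78.3%, and it is too small to say more.

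The sequences under the promoter peaks show what kind of DNA gained accessibility. Each is printed on mm10 in the direction of its gene, without the part inside an annotated untranslated region. Capitals mark exact matches to consensus letters of sequence-specific factors. A looser CTCF match, with 1 mismatch, is in capitals only in the *Smc3* downstream stretch printed further below, and the one in the *Pds5b* stretch is left in lower case. Matches were searched on both strands for NRF1 (GCGCNNGCGC), SP1 (GGGCGG), the CCAAT box (CCAAT), the E-box (CACGTG), ETS factors (CCGGAAG), the cAMP response element (TGACGTCA), YY1 (AAGATGGC), GATA factors (AGATAAG), MEF2 (CTANNNNTAG) and the CTCF core consensus, and matches of different factors may overlap. The first set of 4 is shown because each holds the NRF1 letters, at the genes for the boundary factor, the ring subunit STAG1, the release factor and 1 PDS5 protein.
*Ctcf*, chr8:105636781-105636929, plus strand: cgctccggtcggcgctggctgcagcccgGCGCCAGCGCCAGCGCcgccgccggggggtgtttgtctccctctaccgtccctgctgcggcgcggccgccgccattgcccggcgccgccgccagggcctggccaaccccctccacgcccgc
*Stag1*, chr9:100643275-100643423, plus strand: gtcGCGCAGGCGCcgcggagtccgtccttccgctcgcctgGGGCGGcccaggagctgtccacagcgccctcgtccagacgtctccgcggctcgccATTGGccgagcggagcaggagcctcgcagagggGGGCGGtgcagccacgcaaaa
*Wapl*, chr14:34673738-34673886, plus strand: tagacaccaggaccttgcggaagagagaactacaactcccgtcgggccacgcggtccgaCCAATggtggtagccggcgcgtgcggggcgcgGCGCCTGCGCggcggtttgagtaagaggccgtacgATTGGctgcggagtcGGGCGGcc
*Pds5b*, chr5:150673629-150673738, plus strand: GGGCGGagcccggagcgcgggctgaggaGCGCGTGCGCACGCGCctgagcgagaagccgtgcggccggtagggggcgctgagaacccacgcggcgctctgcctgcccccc

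In these 4 stretches the capitals of the *Ctcf* peak are 2 overlapping NRF1 matches, and the *Pds5b* stretch likewise holds 2 that overlap. *Stag1* and *Wapl* hold 1 NRF1 match each, beside SP1 and CCAAT letters. The next 2 promoter peaks are shown for contrast, because they lack the NRF1 and SP1 letters. The *Smc3* peak holds an E-box and a CCAAT box, and the *Nipbl* peak an ETS match.
*Smc3*, chr19:53599958-53600106, plus strand: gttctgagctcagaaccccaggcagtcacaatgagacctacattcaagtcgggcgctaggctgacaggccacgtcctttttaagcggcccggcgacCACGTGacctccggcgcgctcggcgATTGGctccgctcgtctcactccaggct
*Nipbl*, chr15:8444588-8444736, minus strand: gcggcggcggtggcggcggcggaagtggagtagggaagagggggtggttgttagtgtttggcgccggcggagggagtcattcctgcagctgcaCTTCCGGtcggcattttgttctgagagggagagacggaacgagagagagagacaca

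The boundary factor gene comes first. *Ctcf* (ENSMUSG00000005698.15, chr8:105636568-105682922, plus strand, 46.4 kb) had 2 gained peaks at its start, separated by 394 bp. The stronger peak had a score of 646.0 tags (95% interval 597 to 698), higher than 88.6% of the gained list. Among the strongest promoter peaks of protein-coding genes, 70.2% scored lower. It lay in an intron, 6 bp upstream of 1 annotated TSS and 202 bp downstream of the TSS of the gene's basic transcript (GENCODE's tag for the most complete models). The weaker peak, at chr8:105637324-105637472, had 286.5 tags (254 to 322) and lay in an exon. It also covered the TSSs of *Agrp*, which encodes the neuropeptide agouti-related protein, and of the noncoding gene *Gm5914*, both on the other strand, so this peak cannot be given to *Ctcf* alone. Of the 5 annotated TSSs of *Ctcf*, 4 had a gained peak within 1 kb.

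Of the ring subunits, *Smc3* (ENSMUSG00000024974.10, chr19:53600398-53645833, plus strand) encodes the SMC ATPase that is acetylated when cohesion is established. Its promoter peak, 292 bp upstream of the TSS, had 682.0 tags (632 to 735). It lay 547 bp from the TSS of *AC137853.1*, an unverified transcript on the other strand. The second *Smc3* peak lay downstream of the gene and had 156.0 tags (132 to 182), below the median of 180.5 tags for the gained list. It was 5470 bp from the TSS of a short transcript at the 3′ end of the gene and counted only through that transcript. *Rad21* (ENSMUSG00000022314.10, chr15:51962240-51991747, minus strand) encodes the kleisin that separase cleaves at anaphase. Its promoter peak covered the TSS and had 433.0 tags (393 to 476). The peak 5511 bp upstream of *Rad21*, at chr15:51997258-51997406, had 37.5 tags (26.5 to 51.6), the lowest score of the 15, and only 1.57% of the gained list scored lower.

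*Stag1* (ENSMUSG00000037286.15, chr9:100597798-100959375, plus strand, 362 kb) encodes a ring subunit that binds RAD21 and contacts CTCF. It had the highest score of the 9 genes, 1453.5 tags (1380 to 1530), higher than 99.7% of all gained peaks. That score was also higher than 99.2% of the strongest promoter peaks of protein-coding genes. The peak lay in an intron of the longest gene model, 25 bp upstream of a TSS used by a basic transcript. It was within 1 kb of 7 of the 14 annotated TSSs. The most upstream *Stag1* TSS was 45477 bp away and had no gained peak within 1 kb. The weak second peak in the gene, 8196 bp downstream of that upstream TSS, had 86.0 tags (68.8 to 106). The plot of positions along the genes shows this arrangement.

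**Figure D1:**
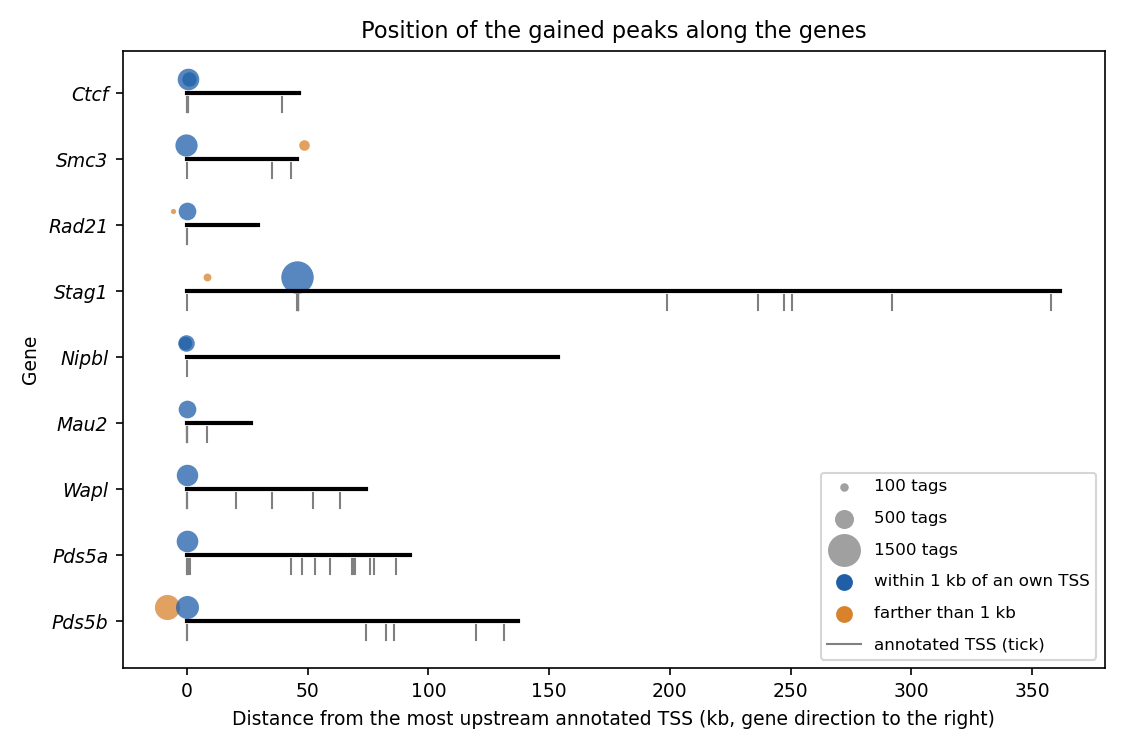
Positions of the 15 gained peaks along the 9 genes, in kb from the most upstream annotated TSS, with each gene drawn in its own direction as a black line, TSSs as ticks and peaks as circles whose area follows the score in tags. Peaks sit at a gene start except the strong *Stag1* peak, which is at an internal cluster of TSSs, the weaker *Stag1* peak, the *Smc3* peak past the 3′ end, and the *Rad21* and *Pds5b* peaks upstream.

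Of the loader genes, *Nipbl* (ENSMUSG00000022141.7, chr15:8290617-8444463, minus strand, 154 kb) has 1 annotated TSS and had 2 gained peaks upstream of it, separated by 625 bp. The nearer, at 125 bp, had 379.0 tags (342 to 419) and the farther, at 899 bp, had 247.0 tags (217 to 280). The farther *Nipbl* peak, at chr15:8445362-8445510, holds a long run of A, and 11.9% of its 32-base words also occur elsewhere in the genome. It was the only one of the 15 peaks with any repeated word. *Mau2* (ENSMUSG00000031858.16, chr8:70016123-70042734, minus strand), which encodes the partner of NIPBL in the loader, had 1 peak of 433.5 tags (394 to 476). The *Mau2* peak covered its TSS and also that of *Sugp1*, a gene for a splicing factor that runs the other way, so both genes share it.

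Of the release and regulator genes, *Wapl* (ENSMUSG00000041408.18, chr14:34673928-34747983, plus strand) had 1 peak of 637.0 tags (588 to 688), 42 bp upstream of its TSS. That peak covered the TSS of the divergent noncoding RNA *5830448L01Rik*. *Pds5a* (ENSMUSG00000029202.12, chr5:65605721-65698273, minus strand) had 1 peak of 648.5 tags (600 to 700) at chr5:65698025-65698173. It covered a TSS and lay wholly within the 5′ untranslated region. *Pds5b* (ENSMUSG00000034021.15, chr5:150673739-150810690, plus strand) had a peak of 731.5 tags (679 to 786) over its TSS. A second peak, 7959 bp upstream at chr5:150665632-150665780, had 873.0 tags (816 to 933), which is 1.19 times the score at the *Pds5b* promoter. It lay 20 bp from the TSS of *N4bp2l2*, the neighboring gene on the other strand, and is a promoter peak of that gene. Thus the 2 PDS5 paralogs had scores of 648.5 and 731.5 tags at their own TSSs, with overlapping intervals.

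**Figure D2:**
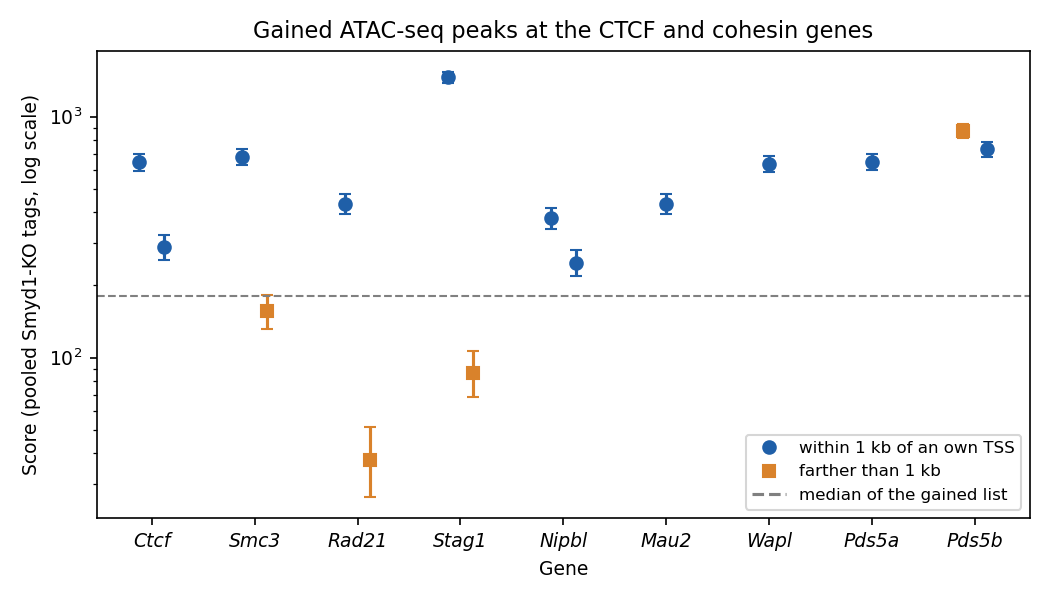
Score of each gained peak in pooled *Smyd1-KO* tags on a log axis, by gene, with exact Poisson 95% intervals (counting error only), circles for peaks within 1 kb of the gene's own TSS, squares for peaks farther away and a dashed line at the list median of 180.5 tags. The 11 circles all lie above the line, whereas 3 of the 4 squares lie below it and the exception is the *Pds5b* square at the promoter of *N4bp2l2*. Over the protein-coding genes with a promoter peak, even the lower quartile of the strongest score, 305.5 tags, lies above this line.

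Of the 15 peaks, 11 lay within 1 kb of an own TSS and 4 farther away. Of all 25745 gained peaks, 11331 lay within 1 kb of a protein-coding TSS, a count that also takes in peaks far from any gene. The 11 promoter peaks held 6577.5 of the 7730.0 tags summed over the 15 peaks, or 85.1%. The strongest promoter peak of each gene was at most 292 bp from a TSS, and 4 of these 9 peaks covered one. These placements and the share of tags were not counted over all protein-coding genes, so they are not shown to be particular to these 9. The genes have 58 annotated TSSs, of which 27 had a gained peak within 1 kb, and most of the others belong to transcripts that start inside *Stag1*, *Pds5a*, *Pds5b* and *Wapl*. Genes with any gained peak had a mean of 1.85 peaks, and the 9 genes a mean of 1.67. The gene bodies beyond 1 kb of any TSS, 0.8698 Mb in all, held 1 gained peak, the weaker one in *Stag1*. This is 1.15 peaks per Mb (95% Poisson interval 0.0291 to 6.41), against 6.88 per Mb (6.72 to 7.05) over all protein-coding genes and 6.80 per Mb (6.63 to 6.98) over those at least as long as *Mau2*. The interval of the 9 genes ends just below both of these values, but it rests on a single peak and was not tested.

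The order of the strongest promoter scores was *Stag1*, *Pds5b*, *Smc3*, *Pds5a*, *Ctcf*, *Wapl*, *Mau2*, *Rad21* and *Nipbl*, and the highest was 3.84 times the lowest. Neighbors in this order had intervals that did not overlap at 2 places, between *Stag1* and *Pds5b*, which differed 1.99-fold (95% interval of the ratio 1.82 to 2.17), and between *Wapl* and *Mau2*, which differed 1.47-fold (1.30 to 1.66). All other neighbors had overlapping intervals, from *Pds5b* at 731.5 to *Wapl* at 637.0 tags and from *Mau2* at 433.5 to *Nipbl* at 379.0 tags. In this order the loader genes *Nipbl* and *Mau2* stood with *Rad21* at the lower end, and *Ctcf*, *Smc3* and the release and PDS5 genes in the middle. Overlap between neighbors does not show that scores are equal, and a grouping by role was not tested. The median over the 9 genes was 646.0 tags. It was 469.5 over the 10561 protein-coding genes with a promoter peak (quartiles 305.5 and 699.5) and 535.5 over the 7277 of these with a CpG-rich TSS window. Of the 9 genes, 6 were above both medians, 2 (*Stag1* and *Pds5b*) were above the upper quartile and none was below the lower one.

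**Figure D3:**
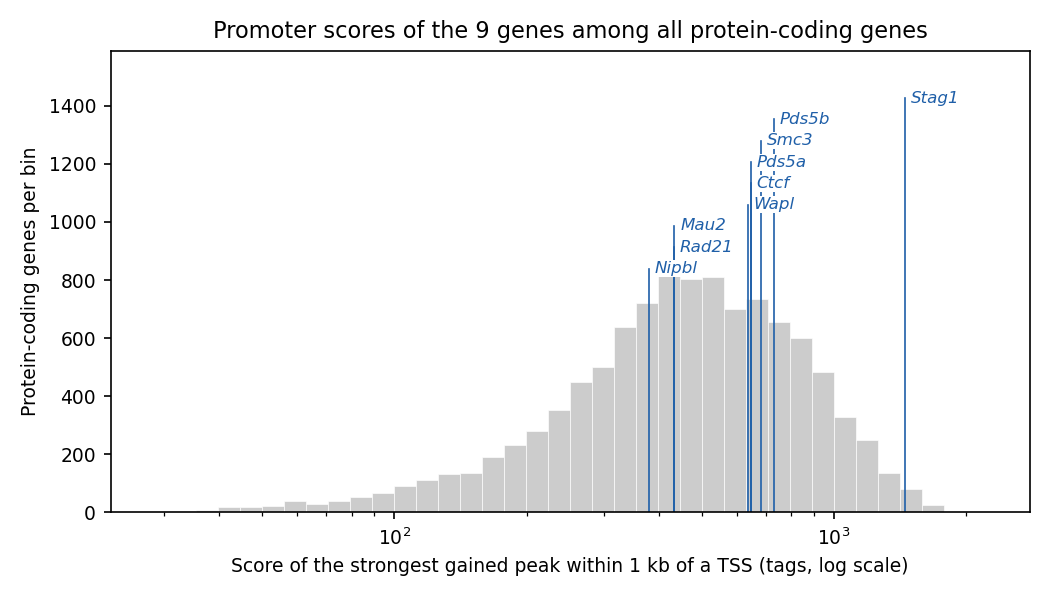
Histogram of the score of the strongest gained peak within 1 kb of a TSS over the 10561 protein-coding genes that have one, in tags on a log axis, with a line at the score of each of the 9 genes. *Stag1*, at 1453.5 tags, is in the upper tail, and the other 8 genes, from 379.0 to 731.5 tags, are in the body of the distribution.

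The promoter peaks of these genes were rich in CpG. Over the 11 peaks the median GC content was 68.5% (range 49.7% to 87.2%) and the median observed over expected CpG ratio 0.990 (0.793 to 1.29). The 11331 gained peaks within 1 kb of any protein-coding TSS had medians of 66.4% and 0.797 (quartiles of the ratio 0.600 and 0.952). The *Pds5a* peak had both the highest GC content, 87.2%, and the highest CpG ratio, 1.29. The *Ctcf* peak of 646.0 tags followed in GC content with 81.2%, at a CpG ratio of 0.965. The farther *Nipbl* peak had the lowest GC content of the 11, 49.7%, and the *Mau2* peak the lowest ratio, 0.793. The 4 peaks beyond 1 kb had a median GC content of 53.4% and a median ratio of 0.108. Among them the peak at the *N4bp2l2* promoter had the highest ratio, 0.736, and the peak upstream of *Rad21* held no CpG at all.

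**Figure D4:**
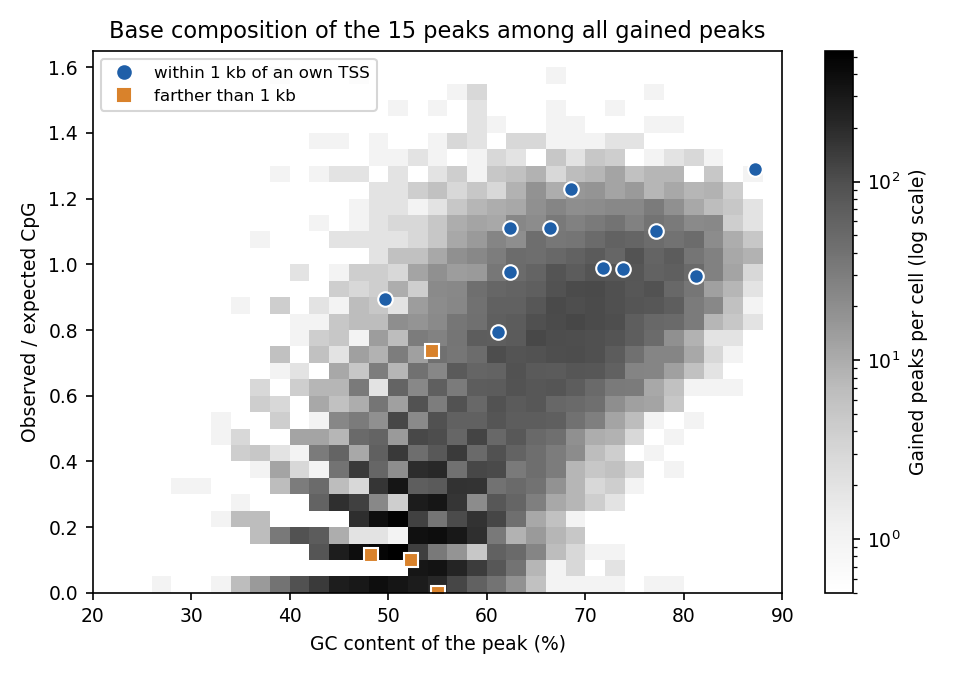
GC content and observed over expected CpG ratio of the 15 peaks (circles within 1 kb of an own TSS, squares farther away) over a grid in which darker cells hold more gained peaks, with a few peaks beyond the axes not drawn. The circles lie at ratios of 0.793 and above, and the squares at 0.736 and below.

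Matches to the NRF1 letters were present in 5 of the 11 promoter peaks, at *Ctcf*, *Rad21*, *Stag1*, *Wapl* and *Pds5b*. They were present in 7.96% of the 11331 gained promoter peaks. Of the 5708 gained promoter peaks whose GC content and CpG ratio were both at least as high as the lowest among the 11, 13.3% held a match. This set only passes a floor and was not matched in composition, so its shares need not be those of peaks as CpG-rich as the 11. NRF1 is a factor of promoters of nuclear genes for mitochondrial and other basic functions. SP1 letters were present in 6 of the 11, at *Rad21*, *Stag1*, *Mau2*, *Wapl*, *Pds5a* and *Pds5b*, against 53.8% of gained promoter peaks. CCAAT boxes were present in 4, at *Smc3*, *Stag1*, *Wapl* and *Pds5b*, against 25.2%, and ETS letters in 2, at *Nipbl* and *Rad21*, against 9.64%. *Mau2* held the YY1 letters, found in 2.20% of gained promoter peaks, and *Smc3* the E-box, found in 4.48%. Neither GATA nor MEF2 letters were in any of the 15 peaks. They were rare in gained promoter peaks too, at 0.944% and 1.40%, and occurred in 4.15% and 2.61% of all gained peaks. In the 5708 peaks at or above the GC and CpG floor the shares were 62.8% for SP1, 22.4% for CCAAT and 12.4% for ETS. They were 2.91% for YY1, 5.13% for the E-box, 0.263% for GATA and 0.823% for MEF2. With so few peaks these shares are descriptions, and a match to letters does not show that a factor binds.

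No peak at the 9 genes held an exact match to the CTCF core consensus. It was held by 4.34% of all gained peaks, 1.19% of gained promoter peaks and 0.333% of the promoter peaks at or above the GC and CpG floor. With 1 mismatch allowed, 3 of the 15 held one, against 13.2% of all gained peaks. Of the 11 promoter peaks 1 held one, against 6.06% of gained promoter peaks, and the share was 19.1% in the 13506 gained peaks beyond 1 kb of any TSS. These 3 were the promoter peak of *Pds5b*, the peak at the *N4bp2l2* promoter and the peak past the 3′ end of *Smc3*. The last of these is printed below with its match in capitals, because it lies more than 1 kb from any annotated TSS. The weaker *Stag1* peak is printed with it, because it holds a full cAMP response element. That element was found in 0.789% of all gained peaks and in 0.200% of those beyond 1 kb of any TSS, where this peak lies.
*Smc3* downstream, chr19:53648828-53648976, plus strand: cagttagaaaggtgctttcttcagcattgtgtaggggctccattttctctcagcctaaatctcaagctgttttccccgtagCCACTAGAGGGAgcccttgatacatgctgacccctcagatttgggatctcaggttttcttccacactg
*Stag1* intron, chr9:100605994-100606142, plus strand: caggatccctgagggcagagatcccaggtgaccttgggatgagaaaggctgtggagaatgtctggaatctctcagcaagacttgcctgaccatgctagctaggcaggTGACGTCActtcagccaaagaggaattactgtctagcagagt

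Farther out, the gained peak nearest to a TSS of *Ctcf* that was not counted lay 13.9 kb away and had 439.5 tags. At *Pds5a* it lay 20.1 kb away with 48.5 tags and at *Stag1* 26.7 kb away with 358.5 tags. At *Nipbl* it lay 145 kb from the only annotated TSS and had 41.5 tags. These distances are not comparable between genes, since they run from TSSs alone and *Nipbl* has none inside or at the 3′ end of its 154 kb. The nearest WT-enriched peak was between 2.18 Mb (*Pds5a*) and 85.6 Mb (*Ctcf*) away.

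The 9 genes were set beside 18 other genes of cohesin and looping. Of these, 13 (72.2%) had a gained promoter peak, with a median best score of 537.5 tags, beside 48.1% of all protein-coding genes and 78.3% of those with a CpG-rich TSS window. None had a WT-enriched peak, which 0.155% of protein-coding genes had. *Smc1a*, the SMC partner of *Smc3*, had 343.5 tags (308 to 382), and *Stag2*, which encodes the alternative to STAG1 in somatic cells, had 398.5 tags (360 to 440). The interval of *Stag2* lay below that of *Stag1* (1380 to 1530), whereas *Stag3*, the meiotic paralog, had 1050.0 tags (987 to 1115). *Smc1a*, *Stag2* and *Hdac8* are on chromosome X, which male cells carry in a single copy and female cells largely silence on 1 copy, so their scores are not directly comparable with those of autosomal genes. The acetyltransferase genes *Esco1* and *Esco2*, which act on SMC3, had 537.5 and 780.0 tags. *Cdca5*, which encodes sororin, a protein that counters WAPL, had 369.5 tags and *Sgo1*, the protector of centromeric cohesin, 752.5 tags. The SMC3 deacetylase gene *Hdac8* had the lowest score, 72.5 tags (56.8 to 91.2), and *Pttg1*, for the separase inhibitor securin, had 221.0 tags. Of the other factors linked to loops, *Zfp143* had 1132.5 tags, *Maz* 919.5, *Yy1* 888.0 and *Ldb1* 499.5.

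The 5 genes of this list without a gained promoter peak were *Smc1b*, *Rec8*, *Rad21l*, *Espl1* and *Ctcfl*. *Smc1b*, *Rec8* and *Rad21l* encode meiotic cohesin subunits, *Ctcfl* a germline paralog of CTCF and *Espl1* the protease separase. The first 3 had no gained peak by the wider rule either, and *Espl1* and *Ctcfl* had 1 each. All but *Smc1b* of these 5 lacked a CpG-rich TSS window, with CpG ratios of 0.245 at *Rad21l*, 0.413 at *Ctcfl*, 0.491 at *Rec8* and 0.696 at *Espl1*, whose window fell short in GC content. Of the 11 genes of the list with such a window, 10 had a promoter peak, beside 78.3% of all protein-coding genes of that class. Of the 7 without one, 3 had a promoter peak, namely *Esco2* (780.0 tags), *Pttg1* (221.0) and *Hdac8* (72.5), beside 26.0% of the 12645 other protein-coding genes. The meiotic genes did not all lack one, since *Stag3* had a peak of 1050.0 tags within 1 kb of a TSS. TSSs of other genes near the peaks of this list were not examined, so such a peak may be shared with a neighbor.

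The other SMC complexes, condensin, which compacts mitotic chromosomes, and SMC5/6, which acts in DNA repair, gave 14 further genes. All 14 had a CpG-rich TSS window and a gained promoter peak, beside 78.3% of all protein-coding genes with such a window. Their median best score was 452.0 tags, from 229.0 at *Nsmce2* to 868.5 at *Smc6*. The 9 CTCF and cohesin genes, with scores from 379.0 to 1453.5 tags, overlapped both lists, as the plot by gene shows.

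**Figure D5:**
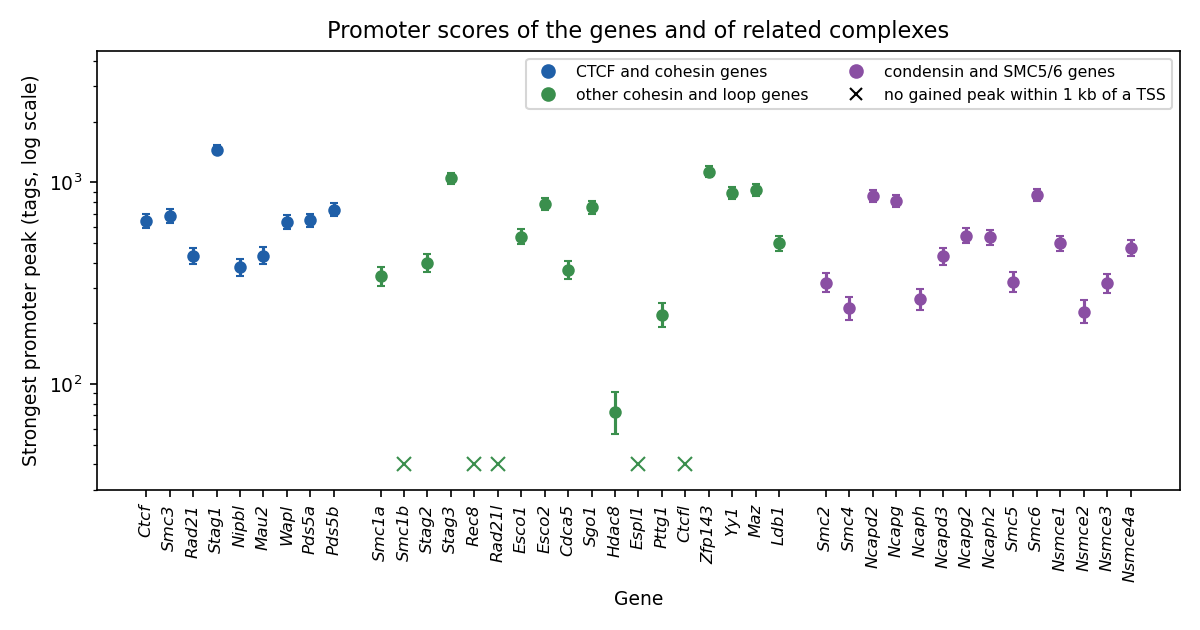
Score of the strongest gained peak within 1 kb of a TSS, in pooled *Smyd1-KO* tags on a log axis with exact Poisson 95% intervals (counting error only), for the 9 genes, the 18 other cohesin and loop genes and the 14 condensin and SMC5/6 genes. Crosses at the bottom mark the 5 genes without such a peak, and *Stag1*, at 1453.5 tags, is the highest of all the genes drawn.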

How the data were processed

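ATAC-seq libraries of E9.5 *Smyd1-KO* and WT hearts (2 each) were aligned by the authors to mm10 with BWA-MEM, and peaks were called with HOMER (v4.10.3) and annotated with ChIPseeker (v1.20.0). The deposited score of a peak is a signal, read here as the tags over the pooled libraries of a genotype after a scaling by the authors whose factor is not given in the sources used here. The handling of duplicate reads and of reads with several positions is not given in the sources used here, and it could change which peaks are listed. The paper states a common sequencing depth per sample, and the depth reached by each library is unknown from the lists.

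Peaks were placed against GENCODE M21 genes and all their TSSs on GRCm38 (mm10), with distances from the nearest edge of a peak, in Python (3.11.15) with NumPy (2.4.6), SciPy (1.17.1) and Numba (0.67.0). Placement and motif search were tested on simulated data. Genes named were all 9 genes, genes with a TSS within 1 kb of their peaks, and the genes of both related lists, whose neighbors were not examined. The members, lists and measures were chosen with earlier results of these data known. The CpG-rich class, the CTCF match with 1 mismatch and the set of promoter peaks at or above the GC and CpG floor were added after the sequences had been seen. The alternatives were a minimum score, other distances, peak centers, basic transcripts, merged peaks and the removal of repeated sequence. Some sequences under the promoter peaks are not reported here.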

Additional observations from a re-analysis of the deposited data

How the results depend on the processing

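No paired analysis was possible because the lists hold pooled libraries. The count of 15 gained peaks at the 9 genes was 12 with scores at or above the list median, 12 with TSS distances up to 3 kb, 15 by peak centers, 14 with basic transcripts, 13 with peaks merged over 1 kb and 14 without repeated sequence. The minimum score left out the distal peaks of *Smc3*, *Rad21* and *Stag1*, the shorter distance those of *Smc3*, *Rad21* and *Pds5b*, basic transcripts that of *Smc3*, and the repeat filter the farther *Nipbl* peak. All 9 genes had a promoter peak under each of the 6 alternatives run for that count, and the median best score stayed at 646.0 tags under each of the 3 run for it. The related lists, whose alternatives were chosen after seeing the data, gave 12 or 13 of 18 genes and 14 of 14. The lists give neither the spread between pools nor a WT score for gained peaks.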
